A study of Malus domestica with 12 samples.

Results

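The AryANE_v2 apple array carries, for most of its transcripts, a probe for the sense strand and a second probe of the opposite orientation, whose name ends in _r. In peel of Granny Smith apples, 668 antisense probes lay above background in all 12 channels while the sense probe of the same name did so in none. They were drawn from 66774 antisense probes with a sense partner, 1.00% of these pairs, on an array of 133709 probes other than controls. A probe counted as above background where its intensity, the mean of its spots, was over the median of the local background by more than 2.6 times the SD of the background pixels. Every sense probe had 1 spot per array, whereas 42317 of the 66774 antisense probes, 336 of the 668 among them, had 2. Because brightness chose these probes, the values on brightness and on silent partners given here are a description without a test.

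Peel of 20 wild-type Granny Smith fruit per sample was taken at harvest, at early physiological maturity, from an experimental orchard station, with no storage before sampling. Low scald peel is represented by 2014-P24 and 2014-P36 and high scald peel by 2015-P24, 2015-P31 and 2017-R11, named by year and orchard plot and classed by the superficial scald, a browning of the peel, that fruit of the same harvest developed in cold storage. Ratios of high over low scald were formed in 3 comparisons, 2015-P24 over 2014-P24 (C1), 2015-P31 over 2014-P36 (C2) and 2017-R11 over 2014-P24 (C3), so that C1 and C3 share their low scald sample, and each comparison had a pair of arrays with exchanged dyes. Low scald peel came from 2014 and high scald peel from 2015 or 2017, so year and scald class cannot be told apart, and C1 and C3 lay on one slide and C2 on another. The sample called 2017-R11 here carries the plot name 31b in its label, and for C2 the study's account of the plant material gives the plots of 2014 and 2015 the other way round from the sample labels, which were followed here.

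Antisense transcripts are RNAs copied from the strand opposite a gene. In plants they are known to arise from promoters of their own, from read-through of a neighbouring gene on the other strand, or from RNA polymerases that work on RNA templates, and some of them alter the level of the sense transcript. A probe reports labelled RNA complementary to it, whatever gene model it was designed from. The origin of the RNA bound by each member was not tested, and neither probe sequences nor genome positions were used here.

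The reverse case was far more frequent. In 8033 pairs the sense probe was above background in all 12 channels and the antisense probe in none, 12 times the 668. Both probes were above background throughout in 251 pairs, and in 28954 pairs neither was above it in any channel. Of the 1576 antisense probes above background in all 12 channels, 42.4% had a sense partner that was silent throughout. The count depended on the weakest channels. The share of probes above background ran from 10.9% to 30.2% per channel, and both Cy5 channels of C2 were at the low end (10.9% in 2015-P31, 13.2% in 2014-P36). Without these 2 channels 1288 antisense and 15723 sense probes met the same rule, an alternative chosen after seeing the data. Leaving out channels can only loosen the rule, so the 1288 contain the 668 by construction. The median log2 ratios of high over low scald of the 1288 were -0.01, -0.02 and 0.13 in C1, C2 and C3. Under the other detection rules the count ran from 570 at 4 SDs to 858 where 11 channels sufficed. The list itself changed with the threshold. Of the 668, 476 were among the 570 at 4 SDs and 588 among the 710 at 2 SDs.

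At the edge of the rule the margins were small. MDE0100052534_r and MDP0000194265_r were the weakest members, with lowest channels of 2.601 and 2.613 SDs above background. MDP0000517882_r and MDE0200016677_r, both at 2.599 SDs in their lowest channel, were left out. On the sense side, the partners of MDP0000533373_r and MDP0000353057_r came closest to detection, with highest channels of 2.552 and 2.548 SDs. The partners of MDE0200013550_r and MDP0000936915_r reached 2.618 and 2.621 SDs in their highest channel, which kept these antisense probes out. In the middle of the list the separation was wide, with a median of 6.18 SDs for the lowest antisense channel of a member and a median of 1.11 SDs for the highest channel of its sense partner.

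The probe names fall into classes, and the members were spread unevenly among them. Of the 668, 463 carried MDP names, 204 MDE names, and 1 an Md_ name. MDE probes have AryANE_v2 identifiers, whereas the other 464 members have AryANE_v1 identifiers. The share of pairs that met the rule was 2.75% of 7422 pairs in the MDE class and 0.782% of 59208 in the MDP class. Sense and antisense probes were more alike in the MDE class, where 12.2% of the sense and 8.52% of the antisense probes were above background in all 12 channels. In the MDP class these shares were 19.2% and 1.59%.

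Within the MDP class the members crowded into one range of identifiers. Names from MDP0000320000 to MDP0000369999, a range whose limits were set after the counts were seen, held 184 of the 463 MDP members in 3548 pairs (5.19%), and all other MDP names held 279 in 55660 pairs (0.501%). In steps of 10000 identifiers the share was 3.19%, 10.2%, 5.76%, 1.87% and 9.41% across the range, after 0.469% in the step before it and ahead of 0.667% in the step that follows. Antisense probes above background in all 12 channels were likewise frequent there, at 8.37% against 1.16% in the rest of the MDP class. Sense probes differed less, with 25.2% in the range and 18.8% outside it. What sets these identifiers apart is not given in the sources used here. The share of MDE pairs that met the rule showed no such concentration, with 1.79% to 3.47% over the 6 leading number codes of the MDE names.

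The members covered almost the whole range of the scanner. The mean log2 intensity over the 12 channels had a median of 9.07, with values from 6.88 to 15.7, and its quartiles were 8.12 and 10.3. Their sense partners had a median of 5.58 and a highest value of 5.96, next to 5.59 for all probes of the array. The 12282 sense probes above background in all 12 channels, the reference used below, were somewhat brighter, with a median of 9.58. In each single channel the median of the members was lower than that of these sense probes, by 0.10 to 0.68 on the log2 scale, and C2 had the smallest gaps, in its Cy5 channels. The MDP members outside the identifier range were the dimmest (median 8.40), while those inside it (9.45) and the MDE members (9.49) were close to each other.

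The 10 brightest members had mean log2 intensities of 13.8 to 15.7, and 7 of them were MDE probes. MDE0200005448_r had intensities from 36532 to 65535 and a median of 61716 over the 12 channels, and its sense partner ran from 26.4 to 116. MDE0100033711_r had a median of 50525, MDE0100017662_r of 50186, MDP0000361378_r of 40076, MDE0200024321_r of 38794 and MDE0100032982_r of 35962. These 6 probes were saturated in 2 to 5 channels, so their highest readings are lower limits and their order was not measured. Saturated spots occurred in 7 members, in up to 5 of 12 channels each, and no member was saturated in all channels of the low or of the high scald samples. MDP0000364584_r (median 17341), MDP0000360772_r (15347), MDE0100017664_r (14914) and MDE0100036175_r (14643) completed the 10.

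Most of these bright probes gave ratios that changed sign between arrays. For MDE0200005448_r the log2 ratio, always given as high over low scald, was -2.03 and 0.86 on the arrays of C1, -1.92 and 1.99 on those of C2, and -0.02 and 1.01 on those of C3, which averaged to -0.59, 0.03 and 0.50. The arrays of C1 and those of C2 thus differed by more than the averages of the 3 comparisons did. MDE0200024321_r was marked as an outlier spot on an array of C3, so that its C3 ratio of 0.16 rests on 1 array. Among the 10 brightest, MDP0000364584_r alone had the same sign on all 6 arrays, with -1.11 in C1, -0.98 in C2 and -0.32 for C3 (mean -0.80, standard error 0.18, limma adjusted p = 0.818). Its levels, which are log2 intensities of single channels after normalisation averaged per peel sample, were 14.35 in 2014-P24 and 14.30 in 2014-P36, against 13.23 in 2015-P24, 13.32 in 2015-P31 and 14.04 in 2017-R11. Both low scald samples were above the 3 high scald samples, with 2017-R11 the nearest to them. In whole peel, fewer cells of a type and less RNA per cell cannot be told apart.

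Between low and high scald peel, no member passed a Benjamini-Hochberg adjusted p of 0.05 when the 3 ratios were tested with limma, where 0.000748% of all probes (1 probe) did. With 1 probe called on the whole array, the absence of called members does not set antisense probes apart. The study combined the same 3 comparisons and called far more transcripts, some members among them. The cause of that difference was not tested. At an unadjusted p under 0.05 there were 80 members (12%), 40 of them lower and 40 higher in high scald samples. Over all 133709 probes that share was 5.31%, with 2.72% lower and 2.59% higher, and among the bright sense probes it was 16.9%. All probes include many at background, so the bright sense probes are the nearer reference, and the pooled share of the members lay below theirs. These groups were not matched for brightness or name class. MDP members in the identifier range lay above their sense probes (19.57% against 13.84%). The other MDP members (10.04% against 17.65%) and the MDE members (7.84% against 10.75%) lay below theirs. Low and high scald levels did not overlap for 28 members with the low scald samples above and for 20 with them below (4.19% and 2.99%). The shares were 5.46% and 4.79% of all probes, and 5.22% and 6.33% of the bright sense probes. Without C2 the number with an unadjusted p under 0.05 rose to 169 members (25.3%), next to 27.1% of the bright sense probes and 7.84% of all probes. When each of the 6 arrays was a ratio of its own, which treats both arrays of the same 2 peel samples as independent, limma called 7 members (5 lower, 2 higher; 1.05%), 1.60% of the bright sense probes and 0.323% of all probes.

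The sign was the same on all 6 arrays for few members. The ratio was negative on all 6 for 27 members, 15 of them in the identifier range, where 2.34% of all probes were, and positive for 23, where 2.14% were. Those 50 made up 7.49% of the members, next to 10.2% of the bright sense probes. A mean log2 ratio of -1 or less on top of this was found for 7 members (1.05%; 0.166% of all probes and 0.773% of the bright sense probes). A mean of 1 or more was found for 2 members (0.299%; 0.0396% of all probes and 0.252% of the bright sense probes). With median centring in place of loess 2 and 0 members were left in these groups, and without C1 or without C3 the latter held 1.

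MDP0000361622_r had the ratio furthest from 0 of all members. The study's supplementary list pairs it with the GDDH13 gene MD05G1345800, annotated as a peroxidase, a class of enzymes that oxidise phenolic compounds with hydrogen peroxide and act in the cell wall and in defence. Its level was 14.18 in 2014-P24 and 14.43 in 2014-P36, and 11.05 in 2015-P24, 10.94 in 2015-P31 and 12.16 in 2017-R11. Both low scald samples lay above every high scald sample, of which 2017-R11 was the highest. The log2 ratios were -3.19, -3.49 and -1.97 in C1, C2 and C3, with a mean of -2.88 (standard error 0.35, negative on 6 of 6 arrays, limma adjusted p = 0.576). Over the other 19 settings the mean ran from -3.34 to -2.58 and the adjusted p from 0.0147 to 1.00. Its own sense partner stayed at background, between 26.1 and 94.8 in intensity.

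A second probe of the same peroxidase gene allowed a comparison. MDP0000545323, a sense probe that the supplementary list pairs with MD05G1345800 as well, was above background in all 12 channels. Its levels were 12.61 in 2014-P24 and 13.19 in 2014-P36, and 11.69 in 2015-P24, 12.33 in 2015-P31 and 12.06 in 2017-R11. The low scald samples again stood above the high scald samples, with a smaller distance. Its ratios were -1.0, -0.86 and -0.47 (mean -0.78, limma adjusted p = 0.636). Antisense and sense probe thus had the same sign on all 6 arrays each, and the ratio was further below 0 on the antisense probe in each comparison. The sense probe was found through that list, which the study chose on these samples for differences between low and high scald. Its sign is therefore not independent evidence. Whether both probes bind the same RNA was not tested.

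The supplementary list was read in a shortened copy, in which 10 probes were marked as antisense, and 4 of these were members. The full list may hold others. The list was chosen by the study on these samples for its difference between low and high scald. The direction of its probes, antisense or sense, is therefore not independent evidence. All 10 identifiers seen in that copy lay in the MDP range described above. Of the other 6, 2 fell short of 12 channels on the antisense side and 4 had a sense partner above background in at least 1 channel. All 4 members had negative ratios in C1, C2 and C3. For the 4 members the list enters "for" in its strand column, as it does for most sense probes, without saying what the entry means.

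MDP0000333394_r was paired with MD01G1076400, a member of the SPA family, which in Arabidopsis works with COP1 to repress light signalling. Its levels were 10.57 in both 2014-P24 and 2014-P36, and 10.17 in 2015-P24, 9.98 in 2015-P31 and 10.12 in 2017-R11. The groups did not overlap and the 2 low scald samples were nearly equal. The ratios were -0.41, -0.58 and -0.43 (mean -0.48, standard error 0.05, limma adjusted p = 0.545, and 0.0100 with 6 separate arrays). The fit to 6 arrays treats both arrays of the same 2 peel samples as independent. The sense probe MDP0000252999, which the list pairs with the same gene, had ratios of -0.52, -0.43 and -0.69 (mean -0.55, limma adjusted p = 0.558). Its levels were 8.97 and 8.89 in the low scald samples and 8.50, 8.46 and 8.22 in 2015-P24, 2015-P31 and 2017-R11, again without overlap.

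MDP0000330535_r was paired with MD13G1154800, annotated by its match to the Arabidopsis gene HCF107, which acts in the maturation of plastid transcripts. Its levels of 9.02 (2014-P24) and 8.77 (2014-P36) exceeded those of 2015-P24 (8.52), 2015-P31 (8.37) and 2017-R11 (8.53). Its mean ratio was -0.46 (SD over comparisons 0.09, limma adjusted p = 0.545). MDP0000334065_r was paired with MD06G1212400, annotated as a cytochrome P450 of family 94, whose members oxidise fatty acids or jasmonates. Its levels were 10.73 in 2014-P24 and 11.35 in 2014-P36, and 10.38 in 2015-P24, 10.73 in 2015-P31 and 10.27 in 2017-R11. Here 2014-P24 and 2015-P31 stood level, so that the groups touched across comparisons although each ratio was negative (mean -0.48, standard error 0.07, limma adjusted p = 0.613).

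Heat shock and stress transcripts that the study tabulates could give no members, because no sense probe of either list was silent throughout. Each of the 48 heat shock transcripts and the 44 other stress transcripts has an antisense probe on the array. Among the former, 1 antisense probe was above background in all 12 channels, with a sense partner that was also above background in at least 1 channel, and 27 were above background in none. Among the latter, no antisense probe was above background in all 12 channels and 29 were in none.

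The other members with the lowest ratios and 1 sign on all 6 arrays have no annotation in the sources used here. MDP0000325611_r had levels of 12.16 and 12.14 in 2014-P24 and 2014-P36, and 9.58, 10.51 and 11.50 in 2015-P24, 2015-P31 and 2017-R11. The low scald samples were alike and the high scald samples lay below them at unlike levels. Its ratios were -2.66, -1.63 and -0.58 (mean -1.62, limma adjusted p = 0.886). MDP0000363531_r had levels of 11.52 and 10.87 in low scald peel and 9.88, 10.04 and 9.30 in 2015-P24, 2015-P31 and 2017-R11, with ratios of -1.58, -0.84 and -2.28 (mean -1.56, limma adjusted p = 0.759). MDP0000239321_r, which lies outside the identifier range, had levels of 13.41 and 12.42, and 12.12, 11.60 and 11.70 in the same order (mean ratio -1.27, limma adjusted p = 0.629). MDP0000336896_r had levels of 9.47 and 9.82, and 8.42, 9.12 and 7.70 (mean ratio -1.17, limma adjusted p = 0.731). In these 4 probes the lowest low scald sample stood above the highest high scald sample.

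The highest ratios were closer to 0. MDP0000120582_r had levels of 9.22 in 2014-P24 and 9.10 in 2014-P36, and 10 in 2015-P24, 9.99 in 2015-P31 and 11.07 in 2017-R11. The 2015 samples were nearly equal and 2017-R11 was highest, and the mean ratio was 1.17 (standard error 0.26, limma adjusted p = 0.801). MDP0000367260_r had levels of 8.74 and 8.20, and 10.43, 9.01 and 9.55, with a mean ratio of 1.10 (limma adjusted p = 0.784). MDP0000368935_r had levels of 8.29 and 7.88, and 9.27, 8.49 and 9.16, with ratios of 0.98, 0.61 and 0.87 (mean 0.82, standard error 0.08, limma adjusted p = 0.545, and 0.0171 with 6 separate arrays). In these 3 probes low and high scald levels did not overlap. MDP0000327789_r overlapped, since 2015-P31 at 8.87 lay below 2014-P24 at 9.21 (mean 0.73, limma adjusted p = 0.830). MDE0300007522_r had 8.22 in 2014-P36 and 8.25 in 2015-P31, the nearest samples of the groups, and a C2 ratio of 0.03 (mean 0.70, limma adjusted p = 0.948).

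The members with the lowest p-values had moderate ratios that varied little, and both were singled out after their values were seen. MDE0400005333_r had ratios of -1.07, -0.97 and -1.19, with levels of 10.60 in 2014-P24 and 9.75 in 2014-P36, and 9.51 in 2015-P24, 8.78 in 2015-P31 and 9.42 in 2017-R11 (mean -1.08, SD 0.11, limma adjusted p = 0.337). MDP0000180698_r had ratios of 0.50, 0.45 and 0.49, with levels of 8.34 and 8.28 in low and 8.77, 8.73 and 8.90 in high scald peel (mean 0.48, SD 0.03, limma adjusted p = 0.337). With 6 separate arrays their limma adjusted p-values were 0.00540 and 0.00772.

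Taken as a set, the members were set against bright sense probes comparison by comparison. The median log2 ratio of the members in C1, C2 and C3 was -0.04, 0.00 and 0.20 (0.29, -0.14 and 0.01 with median centring in place of loess), and that of the bright sense probes was 0.00, 0.07 and -0.04. The ratio of C3 was above 0 for 463 of 668 members (69.3%) and for 45.6% of the bright sense probes. The C3 shift was not particular to members, since the 908 antisense probes above background in all 12 channels whose sense partner was above it in at least 1 had a C3 median of 0.33, with 84.2% above 0. Against sense probes of like brightness the members also had the higher C3 median, in each step of 1 log2 unit from 7 to 13. Members with mean log2 intensities of 7 to 8 had a C3 median of 0.24 against -0.02 for the sense probes of that step, those of 8 to 9 had 0.12 against -0.08, those of 9 to 10 had 0.15 against -0.05, and those of 10 to 11 had 0.22 against -0.03. In C2 the members were below the sense probes in the steps from 9 to 13, with -0.06 against 0.04, -0.16 against 0.05, -0.12 against 0.10 and -0.20 against 0.11. In C1 the members of 7 to 8 had -0.21 against -0.03. These steps pool the name classes, and MDE probes were 204 of the 668 members but 902 of the 12282 sense probes. MDE members stood above MDE sense probes in C2 at 9 to 10 (-0.39 against -0.45) and 10 to 11 (-0.48 against -0.63). At 11 to 12 (-0.64 against -0.36) and 12 to 13 (-0.84 against -0.27) they stood below. MDP members were below MDP sense probes in C2 in each step from 9 to 13. In C3 the MDE members had a median of 0.26 and the MDE sense probes 0.35. On the arrays of C3 the gap between the medians of members and bright sense probes was 0.32 and 0.12, so its size depended on the array. Under 8 other ways of processing the intensities the gap ran from 0.24 to 0.30. These medians describe probes of the same 2 peel samples and were not tested.

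The median SD over C1, C2 and C3 was 0.30 for the members, 0.24 for the bright sense probes, 0.39 for the antisense probes with a sense partner above background and 0.06 over all probes. Within a class the members had 0.44 against 0.48 for the sense probes (MDE), 0.22 against 0.23 (MDP in the identifier range) and 0.27 against 0.23 (other MDP). Across members, the arrays with exchanged dyes had a Pearson correlation of 0.64 for C1, 0.19 for C2 and 0.82 for C3, next to 0.71, 0.35 and 0.86 for the bright sense probes. Probes of an array share its hybridisation and dye, so these coefficients are descriptions. C2, with the dimmest Cy5 channels, was the least repeatable comparison for both groups.

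The 3 name classes behaved differently. MDE members had medians of 0.17, -0.23 and 0.26 for the 3 comparisons, and the MDE sense probes above background in all channels had 0.22, -0.33 and 0.35, so the members had the signs of the sense probes of their own class. Both arrays of each comparison gave the same sign for the MDE members (0.20 and 0.20, -0.44 and -0.15, 0.32 and 0.18). On single probes, 64 of the 199 MDE members measured on 6 arrays (32.2%) were higher on both arrays of C1, lower on both of C2 and higher on both of C3. That order was found in 35.7% of the bright MDE sense probes and in 4.95% and 3.24% of the MDP members inside and outside the identifier range. An unadjusted p under 0.05 was found for 7.84% of the MDE members, next to 10.7% of the bright MDE sense probes and 5.31% of all probes.

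The 279 MDP members outside the identifier range had medians of -0.18 (0.10 with median centring), 0.09 and 0.24 in the same order, where the bright MDP sense probes outside the range had -0.01, 0.08 and -0.06. In C2 the arrays of opposite dye orientation had medians of -0.15 and 0.25 and correlated by -0.26 across these members, and array and dye cannot be told apart there. The array medians in C1 were -0.20 and -0.09, and those in C3 0.41 and 0.06. Antisense MDP probes outside the range whose sense partner was above background in at least 1 channel, 367 in number, had medians of -0.14, 0.09 and 0.20 and a correlation of -0.13 between the arrays of C2. The values of these dim members were thus close to those of other antisense MDP probes, with or without a silent partner.

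The 184 MDP members in the identifier range had medians near 0. Their medians were 0.01, -0.08 and 0.06 (0.35, -0.23 and -0.17 with median centring), next to 0.00, 0.09 and 0.00 for the bright sense probes of the same range. Their dye-swapped arrays correlated by 0.80, 0.49 and 0.88, above the 0.53, 0.14 and 0.80 of those sense probes. Sense probes had 1 spot per array and many members the mean of 2, and the part of this in the correlations was not tested. The low scald levels stood above all high scald levels for 17 of the 184 (9.24%), next to 3.57% of those sense probes and 5.46% of all probes, and below them for 12 (6.52%), next to 6.59% and 4.79%. An unadjusted p under 0.05 was found for 19.6% of the members, 13.8% of the sense probes and 5.31% of all probes. The range also held 113 antisense probes above background in all 12 channels whose sense partner was above it in at least 1. Of these, 10 (8.85%) had the low scald levels above and 4 (3.54%) below all high scald levels, and 16.8% had an unadjusted limma p under 0.05. These values were thus not particular to probes with a silent partner. Of the 5 members named above for the lowest ratios with 1 sign on all 6 arrays this class held 4, MDP0000361622_r included, and of the 5 named for the highest ratios it held 3.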

How the data were processed

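Per the file headers, the authors deposited for each channel spot and local background intensity on the scanner's linear scale, with marks for saturated and outlier spots, as extracted by the Agilent Feature Extraction software. They also deposited log2 values per channel after lowess normalisation, used here as an alternative, with other columns used for names and marks. Members were found on mean intensities averaged over the spots of a probe. For ratios, normexp (offset 50) and loess (span 0.3, 4 iterations) were run in limma 3.58.1 under R 4.3.3, outlier spots were left out, and saturated spots were kept. Spots and then dye-swapped arrays were averaged, and lmFit with an intercept and eBayes tested the 3 ratios against 0, with Benjamini-Hochberg adjustment over 133709 probes. Levels came from single channels after loess and Aquantile. Tables were made with pandas 2.3.3.

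The calculation was run on simulated data as a check of its working. How large a change it can detect at the spread of these data is not reported here. Low and high scald samples are paired because an array holds 1 of each. The 5 peel samples give 3 ratios, 2014-P24 enters both C1 and C3, their number limits the precision, and p-values measure only the spread between these samples. No table used here pairs the probe names with gene names apart from the study's supplementary list, so peel was not checked against marker genes. Members, lists and comparisons were chosen with earlier results of these data known. Named were the 10 brightest members, up to 5 per direction with the largest mean ratio and 1 sign on all 6 arrays, any called member, members that the study names, and those nearest to the detection limit. Alternatives changed the background, normalisation, spots, filters, dye-swap use, slide, pairing, comparisons entered, variance model and detection rule.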

Additional observations from a re-analysis of the deposited data

Results flagged for a closer look

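Opposite directions on both arrays of different comparisons drew attention to 5 of 31 members and class medians looked at. These differences between comparisons were not tested, and groups of 2 and 3 peel samples are too small for a search for single outlying samples. The median of the MDE members was 0.17 and 0.26 in C1 and C3 and -0.23 in C2. The median of the MDP members in the identifier range was -0.084 in C2 and 0.059 in C3, and that of the MDP members outside it was -0.18 in C1 and 0.24 in C3. Among single members, MDE0100052534_r, the weakest member, had log2 ratios of 0.61 and 1.69 in C1 and C3 and -0.092 in C2. MDP0000533373_r, whose sense partner came closest to detection, had -0.25 in C1 and 0.30 in C3. Of the 660 members measured on 6 arrays, 317 (48.0%) had opposite signs of this kind between any 2 comparisons, next to 38.6% of the bright sense probes, 54.8% of the antisense probes with a sense partner above background and 28.1% of all probes. Among MDE probes the share was 59.3% of the members and 59.4% of the bright sense probes.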

How the results depend on the processing

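The count of members stayed within 1.5 times 668 under the planned detection rules and rose to 1288 without the Cy5 channels of C2. The list itself changed, with 476 of the 668 kept at 4 SDs and 588 at 2 SDs. No member was called under most settings, and 1 was with a trended and robust eBayes. With 6 separate arrays 7 were called, and 7 with the comparison as a random replicate block of 2 arrays. The correlation estimated within a block was -0.04, so both fits treated the arrays almost alike. Without the replicate block, in the unpaired test on 5 levels, 0 were called. The number with an unadjusted p under 0.05, 80 as reported, was 17 with plain background subtraction, 31 with median centring, 34 and 51 when only probes above background in all 12 channels or in at least 1 were tested, 123 with slide as a block, 22 in the unpaired test, 45 with trended and robust eBayes, and 107 to 169 when a comparison was left out. With median centring, 2 members had 1 sign on all 6 arrays with a mean of -1 or less and 0 with a mean of 1 or more. The latter numbered 1 to 3 when a comparison was left out. The median of the members in C1 was -0.073 with plain background subtraction and 0.29 with median centring, and in C3 0.012 with median centring. Its sign in C2, at 0.00, changed in 3 of 8 settings. The mean over comparisons, 0.04, became -0.05 without C3 and -0.04 in the unpaired test. The class medians of the MDE members kept their sign in each comparison under 8 settings, whereas those of the MDP members outside the identifier range became 0.10 in C1 with median centring and those inside it -0.17 in C3. In C1 the median inside the range changed sign in 3 of 8 settings, and in C2 that outside it did so in 1 of 8. The members named for the highest or lowest ratios and those that the study lists kept their direction in each of 19 settings. These members had 1 sign on all 6 arrays, so settings that only left out, averaged or regrouped those ratios could not reverse them. The cause of the shifts between settings was not tested.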
